A study of Mus musculus with 9 samples.

Results

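The expression of 9 genes that mark splenic macrophages was followed across all 9 spleen libraries of the series: Csf1r, Adgre1, Itgam, Vcam1, Mrc1, Cd163, Lyz2, Maf and Spic. They were chosen by name and were found by their Ensembl identifiers among the 21965 genes counted, so all 9 of 9 had a row. RNA-seq libraries had been made from mice aged 16 weeks in 3 groups of 3. The first group was female BWF1 mice, which the series title calls lupus-prone. The second was male BWF1 mice and the third was female BALB/c mice, which the title calls not prone to lupus. BWF1 mice are the first generation of a cross of the NZB and NZW inbred strains. No mouse carried a transgene or received an agent according to the labels. The male group shares its strain with the first group and the BALB/c group shares its sex. BWF1 males and BALB/c females differ in both sex and strain, so those effects cannot be told apart in that comparison. The labels give 3 mice per group and do not say whether any library was pooled.

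Macrophages depend on signals through the receptor for colony stimulating factor 1 and settle in tissues as resident cells. In the mouse spleen, red pulp macrophages engulf worn erythrocytes and recycle their iron. They are known for high F4/80, low CD11b and high VCAM1, and their development depends on the transcription factor SpiC. Other splenic macrophages line the marginal zone or clear dying B cells in germinal centres. Monocytes, neutrophils and some natural killer cells carry CD11b as well, and Lyz2 is abundant in neutrophils and monocytes, so not all 9 genes mark macrophages alone.

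The 9 genes have different roles. Csf1r encodes the growth factor receptor. Adgre1 encodes F4/80 and Itgam encodes CD11b, an integrin alpha chain, and both antigens are named in the sort. Vcam1 encodes an adhesion molecule that binds the integrin VLA-4. Mrc1 encodes the mannose receptor CD206, and Cd163 encodes the scavenger receptor for haptoglobin bound to haemoglobin. Lyz2 encodes lysozyme, an enzyme that digests bacterial cell walls. Maf and Spic encode transcription factors.

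Promoter sequences were taken from RefSeq on build GRCm38.p6, each running from 250 bases before to 50 bases after a start of the gene listed there. Entries were matched for 5 of the 9 genes, Mrc1, Cd163, Itgam, Spic and Lyz2. The sequences of 4 are shown for the genes whose values are set side by side below. Mrc1 and Lyz2 were lower in female BWF1 mice than in male BWF1 mice, Itgam is a gate gene, and Cd163 was not called in that comparison. They lie at chr2:14229164-14229463 on the plus strand, chr10:117282223-117282522 on the minus strand, chr7:128062390-128062689 on the plus strand and chr6:124304401-124304700 on the plus strand. Capitals mark 2 short motifs on either strand. One is AGGAAG, or CTTCCT on the other strand, the core bound by PU.1, a master regulator of myeloid cells. The other is TGCTGA, or TCAGCA on the other strand, a half-site bound by MAF proteins. The motifs were chosen after the sequences had been seen.
Mrc1: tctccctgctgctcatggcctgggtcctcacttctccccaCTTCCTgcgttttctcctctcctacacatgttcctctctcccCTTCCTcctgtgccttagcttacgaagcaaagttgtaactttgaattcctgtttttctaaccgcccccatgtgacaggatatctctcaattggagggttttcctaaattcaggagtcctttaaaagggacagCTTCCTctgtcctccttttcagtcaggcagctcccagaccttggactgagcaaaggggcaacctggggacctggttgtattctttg
Lyz2: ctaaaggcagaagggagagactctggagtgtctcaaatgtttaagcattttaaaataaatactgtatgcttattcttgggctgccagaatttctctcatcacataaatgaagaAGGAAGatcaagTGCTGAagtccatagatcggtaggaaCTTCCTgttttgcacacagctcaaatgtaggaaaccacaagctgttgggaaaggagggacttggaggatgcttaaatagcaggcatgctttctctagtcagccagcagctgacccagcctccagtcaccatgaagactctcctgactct
Itgam: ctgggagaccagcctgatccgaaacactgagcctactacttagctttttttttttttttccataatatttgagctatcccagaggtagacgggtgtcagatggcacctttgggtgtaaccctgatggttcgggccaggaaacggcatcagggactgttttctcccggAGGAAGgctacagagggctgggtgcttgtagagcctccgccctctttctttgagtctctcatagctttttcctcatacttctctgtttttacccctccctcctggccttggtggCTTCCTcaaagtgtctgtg
Cd163: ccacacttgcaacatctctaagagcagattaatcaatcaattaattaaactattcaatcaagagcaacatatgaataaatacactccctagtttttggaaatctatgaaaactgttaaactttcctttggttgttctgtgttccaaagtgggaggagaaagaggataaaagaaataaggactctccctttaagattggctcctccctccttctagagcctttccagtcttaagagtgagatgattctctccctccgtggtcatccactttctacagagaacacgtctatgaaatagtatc
The PU.1 core stood 3 times in the Mrc1 window, 2 times in the Lyz2 window, 2 times in the Itgam window, 0 times in the Cd163 window and 1 time in the Spic window, which is not shown. The expression values of Spic overlapped in all 3 groups. The Spic window, chr10:88682974-88683273 on the minus strand, belongs to an inner start, since the gene spans 88674772 to 88685015. Of all 32851 promoter windows of that length, 35.4% held the PU.1 core. The MAF half-site stood 1 time each in the Lyz2 and Spic windows and 0 times in the other 3, against 19.5% of all windows. The 2 motifs overlapped at 0 bases in these windows. A match describes letters and not a bound site.

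It is not certain which cells were sequenced. Whole splenocytes are named in the design text and splenocytes in the series title. The protocol of each sample describes collagenase digestion of the spleen and a flow sort of cells positive for both CD11b and F4/80. The levels of the gate genes were therefore set against those of lymphocyte genes, as CPM (counts scaled to a common library total with TMM factors) per kilobase of exon not shared with another counted gene. Adgre1 stood at 4.58 ± 0.83 CPM per kilobase in female BWF1 mice, 4.72 ± 1.53 in male BWF1 mice and 2.25 ± 0.55 in female BALB/c mice (SD, n = 3 each). Itgam stood at 0.34 ± 0.59, 3.09 ± 1.57 and 3.51 ± 0.58 CPM per kilobase in the same groups. Cd79a, a chain of the B cell receptor complex, stood at 202 ± 26.5, 276 ± 50.9 and 305 ± 25.5 CPM per kilobase.

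Per length, Cd79a lay above Adgre1, Itgam, Csf1r and Lyz2 in all 9 libraries. Its ratio to Adgre1 was between 39.4 and 49.1 in BWF1 female libraries, 42.6 and 94.1 in BWF1 male libraries, and 112 and 174 in BALB/c libraries. Ms4a1, the B cell antigen CD20, lay above Adgre1, Itgam and Csf1r in all 9 libraries and above Lyz2 in 1. Cd3e, a chain of the T cell receptor complex, also lay above Adgre1 and Itgam in all 9 libraries, by 2.48- to 3.53-fold over Adgre1 in BWF1 females, but above Csf1r in only 1 of 3 BWF1 males and above Lyz2 in 0 of 9 libraries. It stood at 13.3 ± 2.63 CPM per kilobase in female BWF1 mice, 24.1 ± 0.48 in male BWF1 mice and 19.9 ± 5.88 in female BALB/c mice. The whole list of 11 B cell markers summed to between 5515 and 6017 CPM in female BWF1 mice, 7561 and 8244 in male BWF1 mice, and 6537 and 7629 in female BALB/c mice. The 9 macrophage genes summed to between 221 and 244 CPM in female BWF1 mice, 405 and 624 in male BWF1 mice, and 329 and 390 in female BALB/c mice. The B cell genes Cd79a and Ms4a1 thus stood at least 9.02 times as high as Adgre1 in every library, which goes against the labelled sort for F4/80 and CD11b, and the libraries are called spleen libraries here. In such mixed samples, fewer cells of a type and less RNA per cell cannot be told apart.

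**Figure D1:**
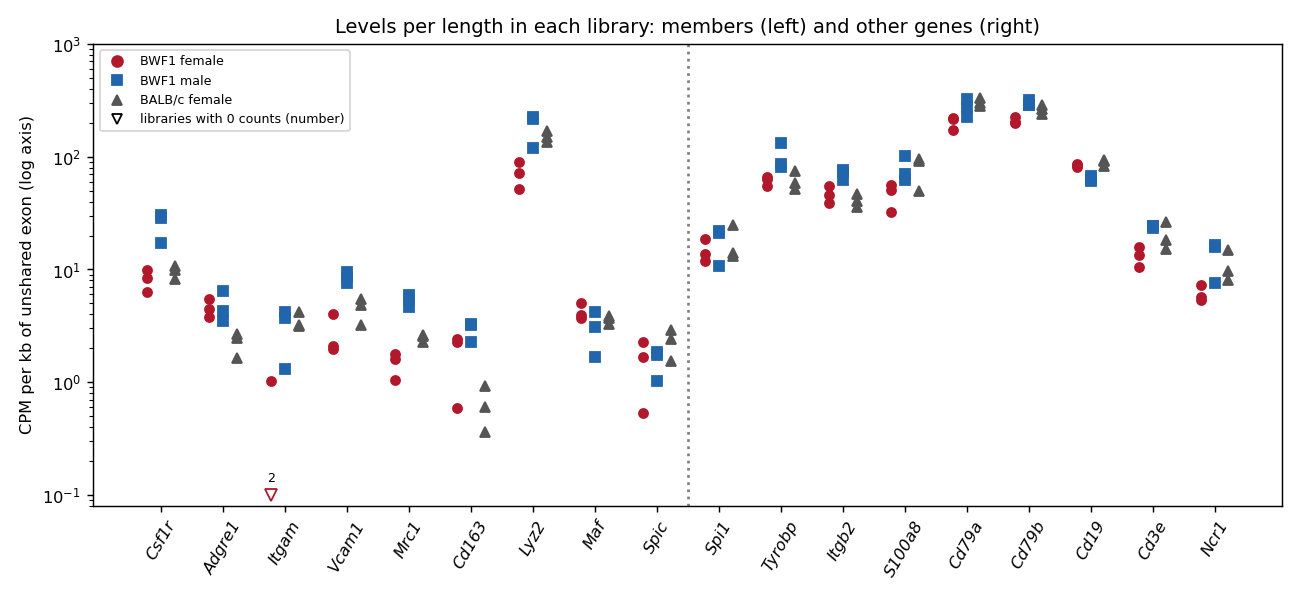
CPM per kilobase of unshared exon (log axis) in each library for the 9 macrophage genes, left of the dotted line, and for 9 other genes on the right. Circles are BWF1 females, squares BWF1 males and triangles BALB/c females, and the open triangle marks the 2 BWF1 female libraries with 0 Itgam counts. Cd79a lies above each of Csf1r, Adgre1, Itgam and Lyz2 in all 9 libraries.

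Depth limited the rarer genes. Only a small share of the tallied reads fell in genes. It was 1.29% to 1.59% in female BWF1 mice, 1.41% to 2.05% in male BWF1 mice and 2.14% to 2.82% in female BALB/c mice. Between 55.9% and 61.5% of reads per library did not align uniquely, and between 37.2% and 42.1% lay outside the counted features. Gene counts ranged from 458608 to 673160 in female BWF1 mice, 970263 to 4305003 in male BWF1 mice and 879890 to 1310639 in female BALB/c mice, of which the mitochondrial synthetase gene Lars2 alone took between 42.3% and 76.6%. The 9 genes together had 105 to 137 counts per library in female BWF1 mice, 312 to 2998 in male BWF1 mice and 351 to 543 in female BALB/c mice. Of the 9, 7 passed the filter on low counts and were among the 7719 genes tested. Itgam and Spic did not pass and were described by their counts. Library names carry a tag, ORIG or RL, whose meaning the labels do not give. All BALB/c libraries and replicate 2 of both BWF1 groups carry ORIG, and the other 4 BWF1 libraries carry RL.

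Csf1r (build mm10, chromosome 18, 61100598 to 61132149, plus strand) had 30.9, 48.4 and 41.1 CPM in female BWF1 mice, 149, 84.1 and 141 CPM in male BWF1 mice, and 48.9, 52.6 and 40.6 CPM in female BALB/c mice. All BWF1 males lay above all other libraries, and the female groups overlapped. Part of its exons, 873 of 5774 bases, also lies in exons of Hmgxb3 on the opposite strand, so reads there cannot be assigned without strand. Per length, among the 9 genes only Lyz2 had a higher mean level in each group.

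Adgre1 (chromosome 17, 57358691 to 57483527, plus strand) had 17.6, 14.5 and 12.3 CPM in female BWF1 mice, 13.7, 11.3 and 20.8 CPM in male BWF1 mice, and 8.62, 5.26 and 7.93 CPM in female BALB/c mice. The BWF1 groups overlapped and every BWF1 library lay above every BALB/c library. These values rest on few reads, 6 to 9 counts per library in female BWF1 mice, 7 to 100 in male BWF1 mice and 8 to 12 in female BALB/c mice. The males' 100 counts came from the deepest library, BWF1 male 3.

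Itgam (chromosome 7, 128062640 to 128118491, plus strand) had 0, 1 and 0 counts in female BWF1 mice, 3, 2 and 32 counts in male BWF1 mice, and 7, 10 and 5 counts in female BALB/c mice. In BWF1 females 1 and 3, the limit that a count of 0 allows (3 counts) stood at 6.62 and 6.16 CPM on the scaled totals. Itgam in the other groups lay between 2.05 and 6.66 CPM, so those libraries alone allow nearly the whole of that range. Over the pooled libraries, its rate in female BWF1 mice was 0.109 times that in male BWF1 mice (exact 95% interval 0.00269 to 0.646, from 1 against 37 counts) and 0.114 times that in female BALB/c mice (0.00277 to 0.707, from 1 against 22 counts). These intervals cover counting error only. In the fit without a filter on low counts, the edgeR adjusted p was 0.103 against BWF1 males and 0.0856 against BALB/c females.

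The annotation bears on that gene in particular. Of the 5024 exon bases of Itgam, 3450 also lie in exons of Gm49368, a protein-coding gene on the same strand that was counted as well. Thus 1574 bases, 31.3% of the total, belong to Itgam alone, against 84.9% for Csf1r and 100% for each of the other 7 genes. These files set aside between 3531 and 38674 reads per library as ambiguous, by a counting rule that the sources used here do not give. Gm49368 itself had 0 counts in female BWF1 mice, 0, 0 and 5 in male BWF1 mice, and 2, 1 and 1 in female BALB/c mice. How many Itgam reads were set aside was not tested.

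**Figure D2:**
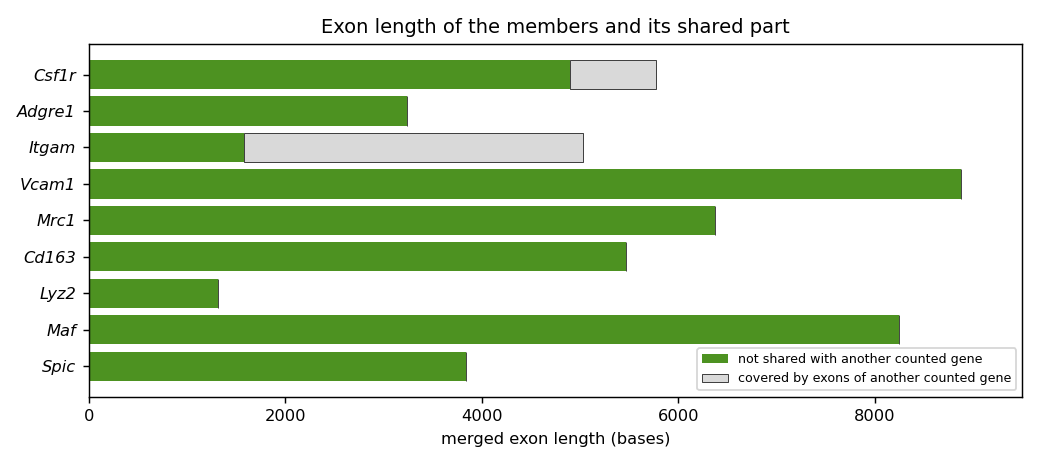
Merged exon length in bases of the 9 genes, split into the part not shared with another counted gene (green) and the part that exons of another counted gene cover (grey). Shared exon is drawn for Csf1r, with 4901 unshared bases of 5774, and for Itgam, with 1574 of 5024.

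Vcam1 (chromosome 3, 116109949 to 116129688, minus strand) had 17.6, 35.5 and 18.5 CPM in female BWF1 mice, 84.3, 66.6 and 76.0 CPM in male BWF1 mice, and 48.9, 28.3 and 42.6 CPM in female BALB/c mice. BWF1 males stood above every other library, and BWF1 female 2 lay within the BALB/c range. Mrc1 (chromosome 2, 14229392 to 14332057, plus strand), whose promoter is printed above, had 6.62, 11.3 and 10.3 CPM in female BWF1 mice, 29.4, 37.9 and 35.0 CPM in male BWF1 mice, and 16.5, 14.5 and 16.9 CPM in female BALB/c mice. The 3 groups of Mrc1 values did not overlap, with BWF1 females lowest and BWF1 males highest. They rest on few reads in the females, 15 counts over all BWF1 females, 220 over all BWF1 males and 62 over all BALB/c females. BWF1 female 1, at 6.62 CPM, stood at the level that 3 counts make in that library. Stromal and endothelial cells can also express Vcam1 and Mrc1.

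Cd163 (chromosome 6, 124304656 to 124330527, plus strand) had 13.2, 3.23 and 12.3 CPM in female BWF1 mice, 17.7, 12.3 and 18.1 CPM in male BWF1 mice, and 5.03, 3.29 and 1.98 CPM in female BALB/c mice. All BWF1 males lay above all BALB/c females, while BWF1 female 2, with 2 counts, lay in the BALB/c range. Over each group, Cd163 had 14 counts in female BWF1 mice, 108 in male BWF1 mice and 14 in female BALB/c mice. BALB/c female 3, at 1.98 CPM, lay below the 2.97 CPM that 3 counts make in that library. Lyz2 (chromosome 10, 117277331 to 117282321, minus strand) had 94.8, 67.8 and 117 CPM in female BWF1 mice, 294, 158 and 286 CPM in male BWF1 mice, and 221, 176 and 196 CPM in female BALB/c mice. All BWF1 females lay below all libraries of both other groups, which overlapped. Lyz2 resembles its neighbour Lyz1, with which it shares 15.4% of its 50-base stretches, so its counts are uncertain there. Lyz1 itself had 0, 0 and 0 counts in female BWF1 mice, 0, 2 and 4 in male BWF1 mice, and 8, 6 and 1 in female BALB/c mice.

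Maf (chromosome 8, 115682942 to 115707794, minus strand), which encodes a transcription factor of mature macrophages and is also expressed in T cells, had 41.9, 32.3 and 30.8 CPM in female BWF1 mice, 13.7, 25.6 and 34.8 CPM in male BWF1 mice, and 27.3, 31.5 and 30.7 CPM in female BALB/c mice. The 3 groups overlapped, and BWF1 males spread most. Spic (chromosome 10, 88674772 to 88685015, minus strand), whose protein is needed for red pulp macrophages, had 4, 4 and 1 counts in female BWF1 mice, 2, 7 and 32 in male BWF1 mice, and 13, 17 and 6 in female BALB/c mice. As CPM these were 8.82, 6.45 and 2.05, then 3.92, 7.18 and 6.66, then 9.34, 11.2 and 5.95 in the same groups. Its 3 groups overlapped as well. Pooled, the rate of Spic in female BWF1 mice was 0.885 times that in male BWF1 mice (exact 95% interval 0.378 to 1.85) and 0.628 times that in female BALB/c mice (0.266 to 1.33).

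**Figure D3:**
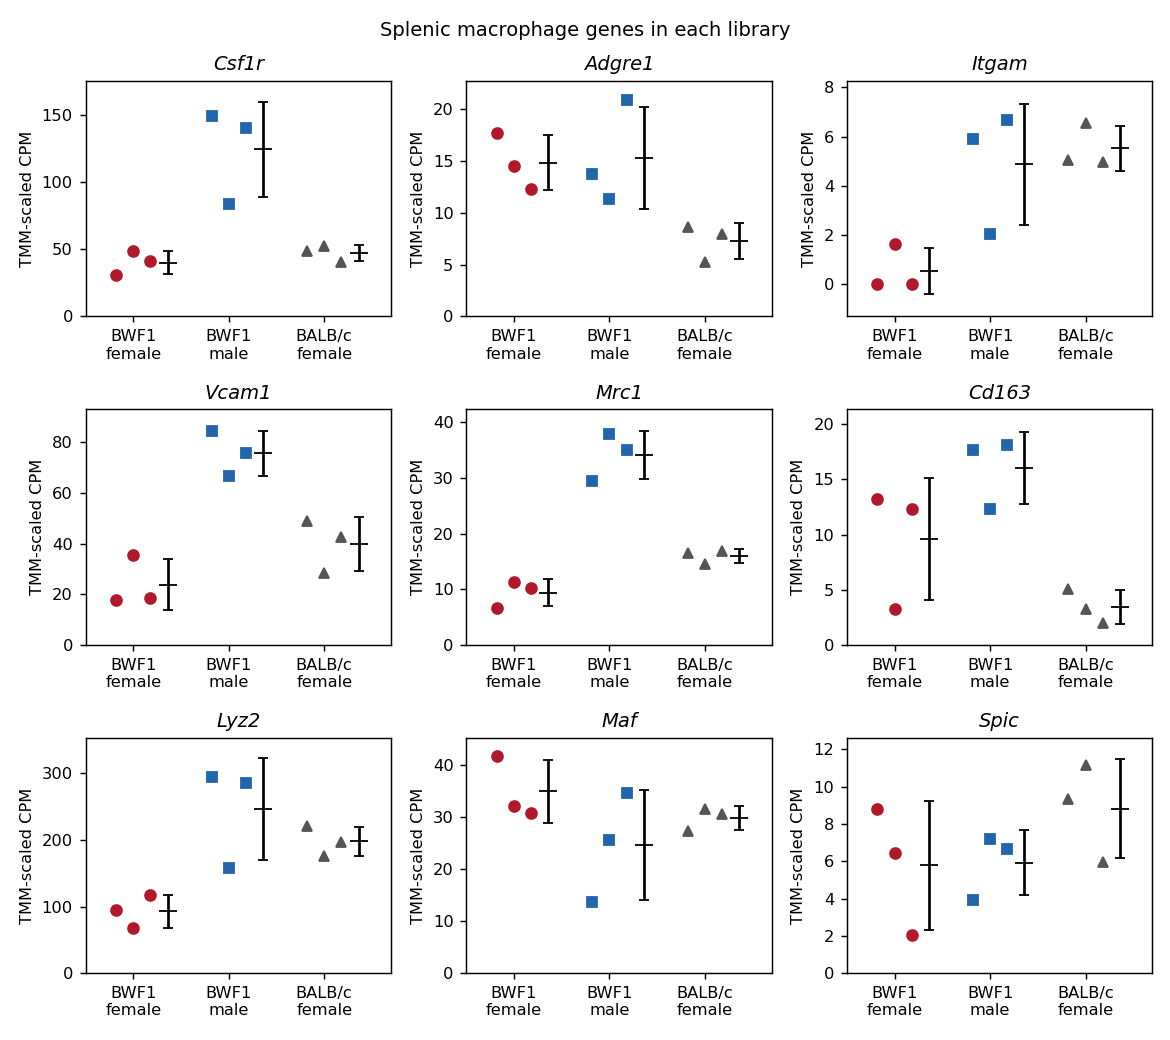
TMM-scaled CPM of each of the 9 genes in each library, with BWF1 females (circles) left, BWF1 males (squares) in the middle and BALB/c females (triangles) right; each panel has its own linear axis, and the black mark shows mean ± SD (n = 3). Csf1r, Vcam1 and Mrc1 are highest in all BWF1 males, Lyz2 is lowest in all BWF1 females, and Maf and Spic overlap in all 3 groups.

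BWF1 females were first set against BWF1 males, which share the strain and age but are not the lupus-prone sex. A part of the macrophage genes was lower in the females: the growth factor receptor gene Csf1r, the adhesion gene Vcam1, the mannose receptor gene Mrc1 and the lysozyme gene Lyz2 fell, by 3.08-, 3.09-, 3.58- and 2.64-fold. Csf1r averaged 40.1 ± 8.8 CPM in female BWF1 mice and 125 ± 35 in male BWF1 mice (SD, n = 3 each). The F4/80 gene Adgre1 averaged 14.8 ± 2.7 and 15.3 ± 5.0 CPM, and the transcription factor gene Maf 35.0 ± 6.0 and 24.7 ± 10.6 CPM, and neither was called.

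The log2 fold change was −1.62 for Csf1r (SE 0.22; edgeR adjusted p = 1.74e-04), −1.63 for Vcam1 (SE 0.26; adjusted p = 0.00103), −1.84 for Mrc1 (SE 0.31; adjusted p = 0.00137) and −1.40 for Lyz2 (SE 0.21; adjusted p = 3.70e-04), by the quasi-likelihood test adjusted over all 7719 genes. In each of these 4 genes, all 3 females lay below all 3 males. Cd163 differed by −0.81 (SE 0.46; edgeR adjusted p = 0.398), Adgre1 by −0.13 (SE 0.37; adjusted p = 0.914) and Maf by 0.41 (SE 0.28; adjusted p = 0.501). The 95% interval of the Adgre1 difference ran from −0.85 to 0.60 and that of Maf from −0.14 to 0.95, and both intervals include 0. Thus 4 of the 7 tested genes were called lower, and the other 3 had an unadjusted edgeR p above 0.05. Of all tested genes, 2.19% were called, 1.23% lower and 0.959% higher. The median log2 fold change was −1.40 over the 7 genes and 0.00 over all tested genes. By overlap, 4 of the 7 tested genes, the called ones, had every female below every male, where 9.68% of tested genes lay lower without overlap and 9.04% higher. With library totals in place of TMM scaling, the call of Lyz2 ended (−1.17; adjusted p = 0.0889).

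The 4 calls held without any single library, while DESeq2 called 3 of them and gave no adjusted p for Mrc1. Within libraries tagged RL, 2 females against 2 males, the difference on the log2(CPM + 1) scale was −1.99 for Csf1r, −2.09 for Vcam1, −1.84 for Mrc1 and −1.45 for Lyz2. Within ORIG, 1 female against 1 male, it was −0.78, −0.89, −1.66 and −1.21 for the same genes. Genes of some other cells were lower in the same females, and erythroid genes lay the other way. Of 10 T cell markers tested 6 were called lower by edgeR and 3 by DESeq2, with sums of 349 to 459 CPM in female BWF1 mice and 624 to 753 in male BWF1 mice. Of 6 natural killer markers tested 4 were called lower by edgeR and 1 by DESeq2, with sums of 77.4 to 84.2 and 258 to 273 CPM. B cell markers summed to 5515 to 6017 and 7561 to 8244 CPM, with 1 of 11 tested, Cd74, called lower by edgeR. Plasma cell markers summed to 563 to 834 and 1256 to 2075 CPM, with 1 of 6 tested, Jchain, called lower by edgeR. DESeq2 called 2 of the B cell and 1 of the plasma cell genes, and 3 and 2 genes had a positive fold change. Monocyte markers summed to 318 to 380 and 402 to 467 CPM, and neutrophil markers to 200 to 441 and 315 to 759 CPM. Of these lists 0 of 10 and 0 of 8 tested genes were called by edgeR, and 0 by DESeq2, while 3 and 5 had an unadjusted edgeR p under 0.05. Stromal and endothelial markers summed to 174 to 220 and 165 to 188 CPM, with Col1a2 called higher in the females. Erythroid markers summed to 842 to 2339 CPM in female BWF1 mice and 179 to 1322 in male BWF1 mice. All 9 tested had a positive fold change, with a median of 1.65 on the log2 scale, 7 had an unadjusted edgeR p under 0.05, and Epb42 was called higher by edgeR, while DESeq2 called 0. The part of these cells in the macrophage gene values was not tested.

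**Figure D4:**
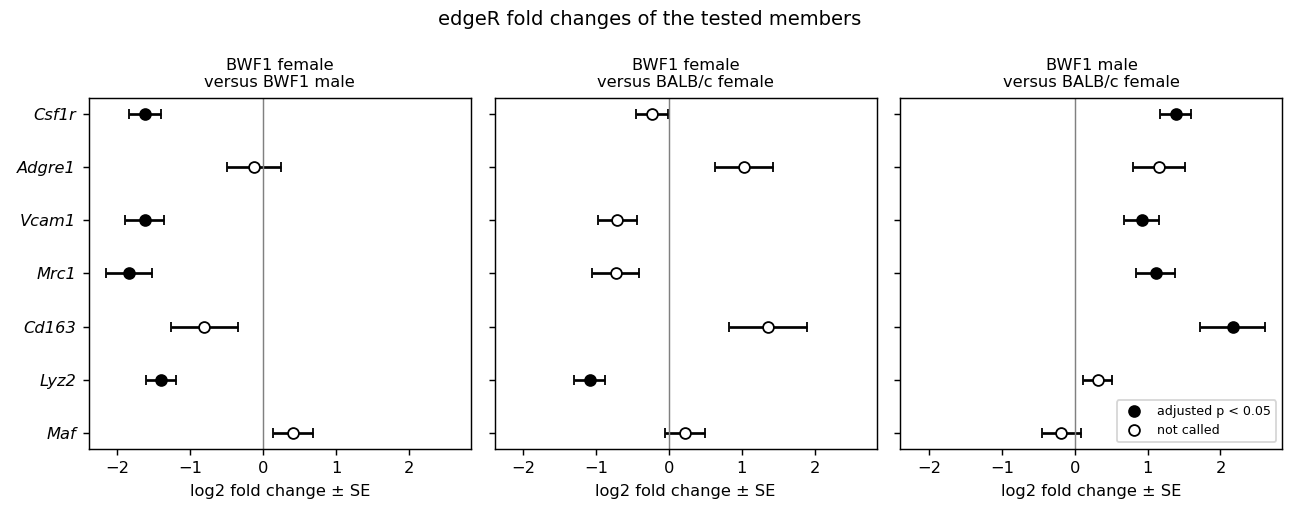
edgeR log2 fold change ± SE of the 7 tested genes in each of the 3 comparisons, with the first-named group over the second; filled points have an adjusted p under 0.05. Csf1r, Vcam1, Mrc1 and Lyz2 lie at −1.40 or lower in female BWF1 mice versus BWF1 males, and Csf1r, Vcam1, Mrc1 and Cd163 lie above 0 in male BWF1 mice versus BALB/c females.

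BWF1 females were next set against BALB/c females, which share their sex. Here Lyz2 alone was called: it averaged 93.2 ± 24.7 CPM in female BWF1 mice and 198 ± 22.4 in female BALB/c mice, 2.13-fold lower in the BWF1 females. Csf1r, at 40.1 ± 8.8 and 47.4 ± 6.1 CPM, overlapped between the groups. Adgre1 stood higher in all 3 BWF1 females than in any BALB/c female, at 14.8 ± 2.7 and 7.27 ± 1.8 CPM, without passing the test.

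The log2 fold change of Lyz2 was −1.09 (SE 0.21; edgeR adjusted p = 0.00217), and it was called in the fit without any single library. The call of 1 of 7 tested genes stands beside 3.82% of all tested genes called in this comparison, with 2.03% of all tested genes lower and 1.79% higher. Vcam1 differed by −0.71 (edgeR adjusted p = 0.149), Mrc1 by −0.73 (adjusted p = 0.247) and Csf1r by −0.23 (adjusted p = 0.659). Adgre1 differed by 1.03 (SE 0.40; edgeR adjusted p = 0.175), Cd163 by 1.36 (SE 0.54; adjusted p = 0.181) and Maf by 0.22 (SE 0.28; adjusted p = 0.747). The 95% interval for Csf1r ran from −0.68 to 0.21 and that for Adgre1 from 0.24 to 1.81, before any adjustment over genes. Of the 7 tested genes, Mrc1 and Lyz2 had every BWF1 female below every BALB/c female and Adgre1 had every one above, against 10.9% and 10.3% of tested genes. BWF1 female 2 decided part of the count. Without it Vcam1 (−1.13; edgeR adjusted p = 0.0275) and Cd163 (1.83; adjusted p = 0.0498) were called as well. BWF1 female 2 is the only BWF1 female tagged ORIG, as all BALB/c libraries are. Without that library, group and tag cannot be told apart. Within ORIG, 1 BWF1 female against 3 BALB/c females, Lyz2 differed by −1.52, Vcam1 by −0.13 and Cd163 by −0.01 on the log2(CPM + 1) scale.

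Neutrophils and monocytes also express Lyz2. Of 8 neutrophil markers tested, S100a9 and Csf3r were called lower and Mpo higher in female BWF1 mice. S100a9, a calcium-binding protein abundant in neutrophils, averaged 55.5 and 136 CPM. The neutrophil list summed to 200 to 441 CPM in female BWF1 mice and 340 to 441 in female BALB/c mice, and the monocyte list to 318 to 380 and 385 to 424 CPM. By edgeR, 4 of 11 B cell, 2 of 10 T cell and 1 of 6 natural killer genes tested were also called lower in these females. So were 3 of 7 stromal and endothelial and 1 of 9 erythroid genes, beside 3.82% of all tested genes called. In these 5 lists 0 genes were called higher, and of the plasma cell list 0 of 6 were called. DESeq2 called 4 B cell, 1 T cell and 0 stromal and endothelial genes. The part of any of these cells in the Lyz2 difference was not tested.

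BWF1 males were last set against BALB/c females. Here 4 genes were higher in the males. The haemoglobin scavenger receptor gene Cd163 differed most, with 16.0 ± 3.2 CPM in male BWF1 mice and 3.43 ± 1.5 in female BALB/c mice, a 4.49-fold difference. That fold rests on few reads, 108 counts over all BWF1 males and 14 over all BALB/c females. No BALB/c library reached the filter's minimum of 10 counts for Cd163, so the gene passed the filter through BWF1 libraries only. Csf1r averaged 125 ± 35 and 47.4 ± 6.1 CPM, Mrc1 34.1 ± 4.3 and 15.9 ± 1.3 CPM, and Vcam1 75.7 ± 8.8 and 39.9 ± 10.6 CPM. Lyz2, at 246 ± 76 and 198 ± 22.4 CPM, overlapped between the groups.

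The log2 fold change was 2.17 for Cd163 (SE 0.45; edgeR adjusted p = 0.00445), 1.39 for Csf1r (SE 0.21; adjusted p = 1.47e-04), 1.11 for Mrc1 (SE 0.26; adjusted p = 0.0142) and 0.92 for Vcam1 (SE 0.24; adjusted p = 0.0263). Adgre1 differed by 1.15 (SE 0.36; edgeR adjusted p = 0.0735), Lyz2 by 0.31 (SE 0.20; adjusted p = 0.473) and Maf by −0.18 (SE 0.26; adjusted p = 0.804). So 4 of 7 tested genes were called higher, where 3.52% of all tested genes were called, 1.67% higher and 1.85% lower. In 5 of the 7 tested genes, Adgre1 and the 4 called ones, every male lay above every BALB/c female, where 11.6% of tested genes lay higher without overlap and 11.9% lower. The calls depended on scaling and on single libraries. With library totals in place of TMM, Cd163 alone was called. Without BWF1 male 3, Csf1r alone was called, and without BALB/c female 2, Csf1r and Cd163. The call of Mrc1 also ended without BWF1 male 2 (1.03; adjusted p = 0.0756) and that of Vcam1 without BALB/c female 3 (0.98; adjusted p = 0.0649). Adgre1 was called without BWF1 male 1 (1.26; adjusted p = 0.0413). With the library name tag in the fit, the call of Cd163 ended (1.48; adjusted p = 0.222). Within ORIG, 1 male against 3 BALB/c females, the difference on the log2(CPM + 1) scale was 0.82 for Csf1r, 0.76 for Vcam1, 1.20 for Mrc1 and 1.64 for Cd163. Natural killer markers, 4 of 6 tested called higher, summed to 258 to 273 CPM in male BWF1 mice and 104 to 139 in female BALB/c mice. Plasma cell markers, 4 of 6 tested called higher (Jchain, Xbp1, Sdc1 and Mzb1), summed to 1256 to 2075 CPM in male BWF1 mice and 682 to 825 in female BALB/c mice. Erythroid markers, 8 of 9 tested called lower by edgeR and 2 by DESeq2, summed to 179 to 1322 and 1315 to 3842 CPM, and stromal and endothelial markers, 2 of 7 called lower, to 165 to 188 and 237 to 275 CPM. Their part in the macrophage gene values was not tested.

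The BWF1 males' values enter the first and the third comparison and the BALB/c values the second and the third, so the comparisons are not independent. Side by side, the genes did not follow one pattern. Csf1r, Vcam1 and Mrc1 were set apart by high values in male BWF1 mice. Lyz2 was set apart by low values in female BWF1 mice. Adgre1 separated both BWF1 groups from BALB/c by its ranges, without a call, and Maf and Spic overlapped throughout.

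To place the genes on one scale within each library, each was expressed relative to Csf1r as a difference of log2(CPM + 1). Group means of this distance restate differences between the fold changes above, and only the spread over libraries is added. Mrc1 relative to Csf1r ran from −2.07 to −1.90 in female BWF1 mice and from −2.30 to −1.13 in male BWF1 mice. The difference of BWF1 females minus BWF1 males in that distance was −0.10 for Vcam1, −0.19 for Mrc1 and 0.22 for Lyz2, and the groups overlapped. Maf relative to Csf1r averaged −0.18 in female BWF1 mice and −2.34 in male BWF1 mice, a difference of 2.15 without overlap, and Adgre1 relative to Csf1r averaged −1.37 and −2.95, a difference of 1.58 without overlap. Lyz2 relative to Csf1r averaged 1.18 in female BWF1 mice, 0.97 in male BWF1 mice and 2.04 in female BALB/c mice, and all 6 BWF1 libraries lay below all BALB/c libraries. Of 24 such comparisons, those without overlap reached an exact two-sided permutation p = 0.1, the smallest that 3 against 3 allows, or 0.218 after Benjamini-Hochberg adjustment, so none could pass 0.05. For Itgam, with 0 counts in 2 female libraries, the added 1 CPM sets the value.

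**Figure D5:**
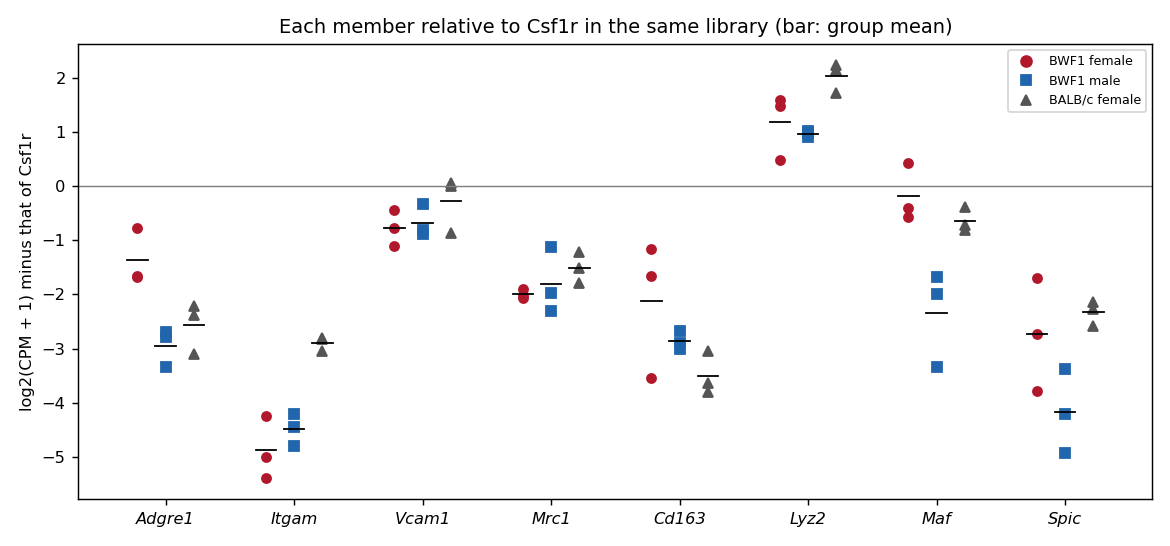
Log2(CPM + 1) of each gene minus that of Csf1r in the same library; points are libraries, with BWF1 females (circles) left of BWF1 males (squares) and BALB/c females (triangles), and bars are group means (n = 3). Vcam1 and Mrc1 overlap between the BWF1 sexes, whereas Adgre1 and Maf lie higher in all BWF1 females than in all BWF1 males.

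For each tested gene, the genes with the most similar pattern over the 9 libraries were found by the root mean square difference of centred log2(CPM + 1) values among 7719 genes. The nearest to Csf1r was C1qc, a chain of complement C1q made by macrophages, at 0.30, followed by Ahsa2 at 0.30 and Tmem9b at 0.36, where Csf1r itself had an SD of 0.75. Vcam1 was the nearest gene to Mrc1, at 0.29, and Mrc1 was next after Zfp809 among the genes nearest to Vcam1, ahead of the T cell gene Thy1 at 0.30. The third gene nearest to Mrc1 was Zfp809, after the T cell receptor gene Cd247 at 0.34. Nearest to Lyz2 were the heat shock gene Hspa8, the monocyte and macrophage gene Cd14 and Surf4, at 0.28, 0.28 and 0.29. Nearest to Cd163 were the plasma cell gene Sdc1 at 0.40, Creb3l2 at 0.42 and the natural killer gene Klrb1c at 0.49. Adgre1 was nearest to Dnajc3, Plxnb2 and Rps2, at 0.21, 0.23 and 0.23. Among the genes near Maf were Nup98 at 0.15 and Ikzf2 at 0.19. For Adgre1, Maf was the closest of the other tested macrophage genes at place 3798 of the 7719 genes. The genes near the macrophage genes thus included lymphocyte genes, and likeness over 9 libraries that share depth and cell mix is a description only.

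Ligands and partners of the 9 genes gave few calls. The list held 12 genes, of which 9 were tested. Between BWF1 females and BWF1 males 0 were called by edgeR and 1 by DESeq2, and 4 had an unadjusted edgeR p under 0.05. Csf1, a ligand of the Csf1r protein, differed by 0.29 on the log2 scale in female BWF1 mice against BWF1 males (SE 0.40; edgeR adjusted p = 0.779), and Il34, the other ligand, had 0 counts in both BWF1 groups. Itgb2, which encodes the beta chain that pairs with the Itgam protein, averaged 142 CPM in female BWF1 mice, 216 in male BWF1 mice and 126 in female BALB/c mice. It was called higher in male BWF1 mice against BALB/c females (0.78; edgeR adjusted p = 0.00536) and differed by −0.61 in female BWF1 mice against BWF1 males (adjusted p = 0.0511). Tyrobp, an adaptor that macrophage receptors signal through, differed by −0.68 (adjusted p = 0.124) between the BWF1 sexes. Hp, which encodes the haptoglobin that Cd163 protein binds, differed by −2.48 (SE 0.75; adjusted p = 0.0805) there, on 1, 0 and 2 counts in female BWF1 mice and 3, 12 and 63 in male BWF1 mice. Itga4 and Itgb1, chains of the integrin that binds Vcam1 protein, differed by −0.13 each between the BWF1 sexes (adjusted p = 0.736 and 0.757).

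Other macrophage genes showed the same directions in part. Of 18 tested in female BWF1 mice against BWF1 males, 6 were called lower and 0 higher by edgeR, beside 2.19% of all tested genes called: C1qa, Ctsb, C1qc, Ctsd, Mpeg1 and Sirpa. DESeq2 called 3 of the 18. C1qa, another complement C1q chain, averaged 9.25 CPM in female BWF1 mice and 39.6 in male BWF1 mice (log2 fold change −2.09; edgeR adjusted p = 0.00111), and Ctsb, a lysosomal protease, 128 and 230 CPM (−0.84; adjusted p = 0.00249). The median of the 18 was −0.72. In BWF1 females against BALB/c females, Mpeg1 and Apoe were called lower, beside 3.82% of all tested genes, with a median of −0.28. Mpeg1, a pore-forming protein of phagocytes, averaged 104 and 224 CPM (−1.10; edgeR adjusted p = 2.05e-04). In BWF1 males against BALB/c females, C1qc, C1qa, Sirpa, Axl and C1qb were called higher and Apoe lower, beside 3.52% of all tested genes, with a median of 0.54. Apoe, a lipid carrier, averaged 61.3 CPM in male BWF1 mice and 128 in female BALB/c mice (−1.07; adjusted p = 4.74e-04).

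Transcription factors of macrophages gave fewer calls. Of 11 tested in female BWF1 mice against BWF1 males, 0 were called by edgeR and 0 by DESeq2, 1 had an unadjusted edgeR p under 0.05, and the median was −0.14. Klf4, a factor of monocyte differentiation, was called lower in female BWF1 mice than in BALB/c mice (−1.58; adjusted p = 0.0210), and Bhlhe41 higher in male BWF1 mice than in BALB/c mice (1.48; adjusted p = 0.0374), while DESeq2 called 0 genes of this list in either comparison. Spi1, which encodes PU.1, differed by −0.27 between the BWF1 sexes (adjusted p = 0.683). Of 8 tested genes of red pulp iron recycling, 0 were called by edgeR or DESeq2 between the BWF1 sexes, where 4 had an unadjusted edgeR p under 0.05. The ferritin gene Ftl1 and Hmox1 were called lower in female BWF1 mice than in BALB/c mice and Ftl1 lower in male BWF1 mice than in BALB/c mice. Hmox1, the enzyme that degrades haem, averaged 27.9 CPM in female BWF1 mice and 50.9 in female BALB/c mice (−0.88; edgeR adjusted p = 0.0366). Of 15 tested relatives of the 9 genes, 0 were called by edgeR in any of the 3 comparisons, although 5, 3 and 3 had an unadjusted p under 0.05 and DESeq2 called 1, 0 and 0. The erythroid list varied within groups, summing to 842 to 2339 CPM in female BWF1 mice, 179 to 1322 in male BWF1 mice and 1315 to 3842 in female BALB/c mice, and its part in the iron genes was not tested.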

How the data were processed

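RNA-seq was made from 9 mouse spleen libraries after ribosomal RNA depletion, 3 per group. The authors deposited raw read counts per gene, written by HTSeq per the file names; per the submitters' processing notes, STAR 2.6, FastQC 0.10.1 and the mm10 build were used, with no role stated. Annotation release, strand setting and feature type are not given in the sources used here, so overlapping and antisense genes cannot be separated. Names, exons and coordinates came from GENCODE M21 on mm10, which named 21939 of 21965 identifiers.

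Counts were tested with edgeR 4.0.16 in R 4.3.3: filterByExpr with a minimum count of 10 kept 7719 genes, TMM factors scaled the libraries, and the quasi-likelihood model was fitted to all 9 libraries by group (prior degrees of freedom 19.4). P-values were adjusted by Benjamini and Hochberg over all tested genes, and calls were made below 0.05. Single values were compared with exact two-sided permutation tests (scipy 1.17.1), for which 0.1 is the smallest p. P-values measure the spread between these libraries, and intervals and floors (3 counts) cover counting error only, since reads carried no molecular identifiers. The fit was tested on simulated data. DESeq2 1.42.0 was an alternative.

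The 9 genes, the lists and the tests were chosen with earlier results of these data known. Named genes are the 9, their ligands and partners, at most 3 called genes per direction, list and comparison, marker levels, and the 3 genes most like each tested gene, of which 1 is not reported here; the other calls of lists with up to 6 called were added after their values were seen.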

Additional observations from a re-analysis of the deposited data

How the results depend on the processing

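Across 371 alternative values of the 21 fold changes of the tested genes, 348 kept their direction and side of the threshold, 12 lost a call, 6 gained one and 5 changed sign. The changes of sign were small or uncalled: Adgre1 in BWF1 females versus BWF1 males (0.26 without BWF1 male 3), Lyz2 in BWF1 males versus BALB/c females (−0.18 with library totals, −0.25 with the library name tag in the fit), Maf in BWF1 females versus BALB/c females (−0.071 with library totals) and Maf in BWF1 males versus BALB/c females (0.052 without BWF1 male 1, in a range from −0.53 to 0.052 over the libraries left out). Leaving out 1 library at a time, the count of called genes stayed at 4 in BWF1 females versus BWF1 males, ran from 1 to 3 in BWF1 females versus BALB/c females and from 1 to 5 in BWF1 males versus BALB/c females. With library totals in place of TMM, the last count was 1, and the median of all genes moved by 0.15, −0.29 and −0.44 on the log2 scale in the 3 comparisons; calls over all genes then split into 45 higher and 14 lower, 23 and 107, and 26 and 248, against 74 and 95, 138 and 157, and 129 and 143 with TMM. The cause was not tested. Over all genes, 169, 295 and 272 were called in the 3 comparisons, against 105, 169 and 196 with DESeq2, 304, 428 and 510 without the filter, 98, 288 and 345 from fits of 2 groups, 186, 160 and 153 with the tag, 196, 291 and 484 with estimateDisp, and 199, 297 and 433 with Lars2 left out. Leaving out 1 library at a time, they ran from 58 (without BWF1 male 3) to 198, 184 (without BALB/c female 1) to 370, and 119 (without BALB/c female 2) to 393. Of the macrophage genes, DESeq2 called 3, 1 and 4, with no adjusted p for Mrc1 between the BWF1 sexes. Adgre1 was called in BWF1 males versus BALB/c females with no filter on low counts, with Lars2 left out, and with estimateDisp before the fit, an alternative chosen after seeing the data.

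With the replicate number as a block, 4, 1 and 4 of the tested genes were called, the same counts as without it. Libraries with the same number did not deviate together (correlations from −0.09 to 0.06, and 1 of 9 libraries correlated best with its own number), so the numbers were not taken to pair the mice. Depth limits Itgam, Spic and the lower bound of all BWF1 female values, since 3 counts in a BWF1 female library stand at 4.84 to 6.62 CPM.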

Other observations

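Marco and Cd209b, genes of marginal zone macrophages, a splenic population outside the red pulp, had few counts in BWF1 mice. Marco, a scavenger receptor of these cells, had 0, 1 and 0 counts in BWF1 females, 0, 0 and 4 in BWF1 males, and 9, 5 and 8 in BALB/c females. At 3 counts, the limit that a count of 0 allows, BWF1 females 1 and 3 and BWF1 males 1 and 2 stand at 6.62, 6.16, 5.88 and 3.08 CPM. Marco lay between 3.29 and 7.93 CPM in BALB/c females, so among these libraries only BWF1 male 2 has a limit below that range. Per kilobase, BWF1 female 2 and BWF1 male 3 stood at 0.84 and 0.43 CPM, on 1 and 4 counts, against 1.71 to 4.12 in BALB/c females. Pooled, its rate in BWF1 males was 0.113 times that in BALB/c females (exact 95% interval 0.0284 to 0.334, counting error only), from 4 against 22 counts. Marco did not pass the filter on low counts and was not tested by edgeR. Cd209b, a lectin of the same cells, had 0 counts in all BWF1 libraries and 3, 0 and 1 in BALB/c females. Siglec1, a sialic acid receptor of metallophilic macrophages, had 4.41, 4.84 and 6.16 CPM in BWF1 females, 7.85, 8.20 and 5.83 in BWF1 males, and 8.62, 17.1 and 19.8 in BALB/c females. Its BWF1 female values lay at or below the level of 3 counts, 6.62, 4.84 and 6.16 CPM in the same libraries. Mfge8, a bridge between dying cells and phagocytes, was called lower in both BWF1 groups than in BALB/c females. Its log2 fold change was −1.63 for females (edgeR adjusted p = 0.00119) and −1.61 for males (edgeR adjusted p = 5.88e-04). The list for macrophages of the marginal zone and those that clear dying cells held 8 genes, and edgeR tested 3. Set against BALB/c, Mfge8 and the B cell marker Cd22 were called lower for females. For males Mfge8 alone was called, and 1 of the 3 had a positive fold change. In both comparisons 0 of the 3 were called higher. Of all tested genes, 3.82% and 3.52% were called there.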
